A study of Rattus norvegicus with 10 samples.

Results

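Atf3, Sprr1a, Gap43, Sox11, Ecel1, Klf6, Gadd45a and Basp1 are 8 genes that neurons are known to switch on or raise after damage to their axons. They were followed in RNA sequencing of the rat supraoptic nucleus, as 8 of the 32623 genes in the table. The genes were chosen by their names, with the measured difference between the groups described here already known. Their values in that comparison are therefore a description, and no test of it is given for them.

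The supraoptic nucleus is a hypothalamic cell group whose large magnocellular neurons make vasopressin and oxytocin and send their axons to the posterior pituitary. Male Sprague-Dawley rats received adeno-associated virus into the nucleus of each side, carrying a short hairpin RNA against Opn3 (Opsin 3, a light-sensitive receptor expressed outside the retina) on one side and a hairpin with no target on the other. The groups are called shOpn3 and shControl, with 5 samples each. All 10 nuclei had thus been injected and carried a virus and a hairpin, and no nucleus without injection was analysed here. Tissue was taken 2 weeks later as a punch of 1 mm from sections of 100 µm, and the RNA of each nucleus was extracted separately, so every sample held all cell types of the punch. The age of the rats, the promoter driving the hairpin, the cell types infected and the side given each virus are not in the labels. The labels number the samples 1 to 5 in both groups but do not say that equal numbers are the same rat. If the samples of a group were not separate rats, the p-values measure only the spread between samples.

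When an axon is cut or crushed, its neuron senses the damage partly through the kinase DLK and its target JNK, which activate Jun and raise Atf3. These transcription factors, with Sox11, Klf6 and Stat3, turn on genes for growth, among them the growth cone proteins Gap43 and Basp1 and the small proline-rich protein Sprr1a. Peripheral sensory and motor neurons are the textbook example. Magnocellular neurons are among the few neurons of the adult brain that regrow axons after these are cut in the pituitary stalk. Several of the same genes also respond to other kinds of stress, and Atf3, Klf6 and Gadd45a can be raised in glia and immune cells too.

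Promoter sequence in the RefSeq tables of assembly GRCr8 was matched for 6 of the 8 genes, by symbol. The 250 bases before the start of 3 of them are shown, because these hold a match to the sites that the Atf3 and Jun families are known to bind. Each reads 5′ to 3′ along the gene's own strand, which is the minus strand in all 3. Capitals mark matches to TGANTCA (AP-1 type) or TGANNTCA (CRE type), searched on both strands.
Sprr1a, chr2:180752626-180752875: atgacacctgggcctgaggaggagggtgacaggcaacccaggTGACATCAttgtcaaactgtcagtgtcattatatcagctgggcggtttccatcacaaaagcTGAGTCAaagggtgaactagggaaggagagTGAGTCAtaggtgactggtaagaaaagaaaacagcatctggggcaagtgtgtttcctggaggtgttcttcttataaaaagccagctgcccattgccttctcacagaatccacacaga
Klf6, chr17:69458479-69458728: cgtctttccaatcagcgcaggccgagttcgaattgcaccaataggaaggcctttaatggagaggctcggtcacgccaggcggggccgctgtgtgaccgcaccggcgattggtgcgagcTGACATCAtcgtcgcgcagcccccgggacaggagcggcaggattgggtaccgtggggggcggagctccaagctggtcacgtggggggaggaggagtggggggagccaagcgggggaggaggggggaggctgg
Sox11, chr6:49738795-49739044: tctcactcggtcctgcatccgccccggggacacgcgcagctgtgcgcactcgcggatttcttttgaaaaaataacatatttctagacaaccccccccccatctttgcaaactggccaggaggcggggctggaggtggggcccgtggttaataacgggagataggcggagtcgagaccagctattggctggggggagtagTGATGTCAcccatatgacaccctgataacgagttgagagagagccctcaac
The Sprr1a window held TGAGTCA at 147 and again at 117 bases before the start, and TGACATCA at 208. Among 33469 windows of the same length, 6.34% held the AP-1 type and 0.311% held it at least 2 times. The CRE type stood at 132 bases before the start of Klf6 and at 51 before that of Sox11. With Sprr1a this made 3 of the 6 windows, beside 13.2% of all windows. Gadd45a and Basp1 had neither type in theirs, nor did Ecel1, whose listed window lies inside the annotated span of its gene and so may not be the promoter of all its transcripts. A match of letters is not a binding site, and no binding was measured here.

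Depth was 33158341 to 39958578 reads per sample, and a normalized count (reads divided by the sample's size factor) stood for about 1 read in each. The shControl mean of Opn3 was 704 ± 277 normalized counts and the shOpn3 mean 188 ± 59.7 (SD, n = 5 each), or 26.7% of control. In shControl replicate 5 it was 261, below the 290 of shOpn3 replicate 1 and far from the 694 to 1007 of the other shControl samples. This library went against its label for the targeted gene, and without it the log2 fold changes of the members described below were 2.82 (Atf3), 5.03 (Sprr1a), 0.53 (Klf6), 0.47 (Sox11), 0.44 (Gadd45a), 0.36 (Gap43), 0.15 (Basp1) and -0.51 (Ecel1), and 2904 genes were called in place of 2940. Vasopressin (Avp) and oxytocin (Oxt), the defining transcripts of the nucleus, were abundant in all 10 samples, with 21.4% and 20.6% of the control level left in shOpn3. Of 15597 genes with a mean of at least 10, 18.8% passed the test (limma, Benjamini-Hochberg adjusted p under 0.05), 10.4% higher and 8.48% lower in shOpn3, and the median log2 fold change of all genes was -0.02. With equal numbers as pairs (a replicate block in the fit), 30.3% passed.

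Atf3, a stress-induced transcription factor that is the most used marker of an injured neuron, had reads in all 10 samples. It stood at 53.0, 47.8, 40.8, 45.9 and 60.1 normalized counts in shControl replicates 1 to 5, and at 247, 290, 368, 450 and 360 in shOpn3 replicates 1 to 5. The groups did not overlap, and 186 normalized counts separated the highest control from the lowest shOpn3 sample. The means were 49.5 ± 7.36 and 343 ± 78.3 (SD, n = 5 each), a ratio of 6.92, and the log2 fold change was 2.75 (SE 0.17). Same-numbered samples differed 4.65-fold in pair 1, which had the smallest ratio, and 9.81-fold in pair 4, which had the largest. In these punches, more cells that express a gene and more RNA per cell cannot be told apart, for Atf3 and for all genes below.

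Klf6, a zinc finger transcription factor that promotes axon growth, had the tightest values of the 8. Its normalized counts were 583, 553, 596, 528 and 612 in shControl and 799, 798, 797, 835 and 843 in shOpn3, in the order of the replicate numbers. The groups lay 185 normalized counts apart, while the SD was 33.8 around 574 in shControl and 22.7 around 814 in shOpn3 (n = 5 each). The log2 fold change was 0.50 (SE 0.07), and the pair ratios ran from 1.34 to 1.58.

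Sox11, a SoxC transcription factor of immature and regenerating neurons, was measured at few reads, 35 to 66 per sample. Its normalized counts were 46.9, 44.8, 45.9, 40.3 and 36.9 in shControl and 63.3, 61.6, 56.1, 63.8 and 64.7 in shOpn3. All shOpn3 samples again lay above all controls. The means were 43.0 ± 4.22 and 61.9 ± 3.45 (SD, n = 5 each), with a log2 fold change of 0.52 (SE 0.14).

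Gadd45a, a stress and p53 target gene that slows the cell cycle and that injured neurons also raise, stood at 502, 516, 550, 527 and 444 normalized counts in shControl. In shOpn3 it stood at 552, 786, 761, 893 and 606. The groups did not overlap, but by only 1.60 normalized counts, since shOpn3 replicate 1 was next to the highest control. The means were 508 ± 39.7 and 720 ± 139 (SD, n = 5 each), with a log2 fold change of 0.48 (SE 0.13).

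Sprr1a, a cornified envelope protein of skin that injured neurons make and carry into growing axons, was nearly silent in controls. It had 0, 1, 0, 0 and 0 reads in shControl replicates 1 to 5 and 6, 61, 65, 78 and 41 reads in shOpn3 replicates 1 to 5. It was thus present in every shOpn3 sample, but replicate 1 held 5.76 normalized counts where the other 4 held 42.1 to 75.3. The shOpn3 samples averaged 49.8 ± 27.4 normalized counts (SD, n = 5), at least 15.7-fold higher than a floor of 3 reads per control library, and at least 19.2-fold without shOpn3 replicate 1. The gene passed the minimum mean of 10 through the shOpn3 samples alone. Of 5 cornified epithelium markers, Krt5, Krt14 and Ivl averaged under 1 normalized count in each group. Sfn averaged 3.27 in shControl and 2.57 in shOpn3, and Krt10 averaged 134 and 123. Of the related genes in the table, Sprr2d was at 0 reads, Sprr1b averaged 0.40 and Sprr3 0.41 normalized counts in shOpn3, and both were at 0 in shControl.

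Gap43, a membrane protein concentrated in growth cones, had 8993, 9669, 9344, 9262 and 7822 normalized counts in shControl. In shOpn3 it had 12815, 16327, 11459, 8448 and 12091. Of the 5 shOpn3 samples, 4 lay above all controls, while replicate 4 lay within their range. The means were 9018 ± 711 and 12228 ± 2830 (SD, n = 5 each), a ratio of 1.36 and a log2 fold change of 0.41 (SE 0.14). The SD was larger in shOpn3, where replicate 2 was highest.

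Basp1, a growth cone protein that like Gap43 binds the inner face of the membrane, differed least. Its normalized counts were 1754, 1667, 1427, 1496 and 1464 in shControl and 1805, 2010, 1705, 1494 and 1770 in shOpn3. The groups overlapped, and the means of 1562 ± 142 and 1757 ± 186 (SD, n = 5 each) gave a log2 fold change of 0.17 (SE 0.09). Replicate 2 was highest and replicate 4 lowest in shOpn3, as for Gap43.

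Ecel1, a neuronal membrane protein of the neprilysin family that peripheral neurons raise after nerve injury, was the single member with a lower mean in shOpn3. It had 1955, 2246, 1816, 2092 and 1190 normalized counts in shControl and 1585, 1444, 1195, 1052 and 1994 in shOpn3. Without the samples numbered 5 the groups would not overlap, and those 2 samples lay at the opposite ends of their groups. The means were 1860 ± 407 and 1454 ± 367 (SD, n = 5 each), or 78.2% of control, with a log2 fold change of -0.36 (SE 0.19).

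**Figure D1:**
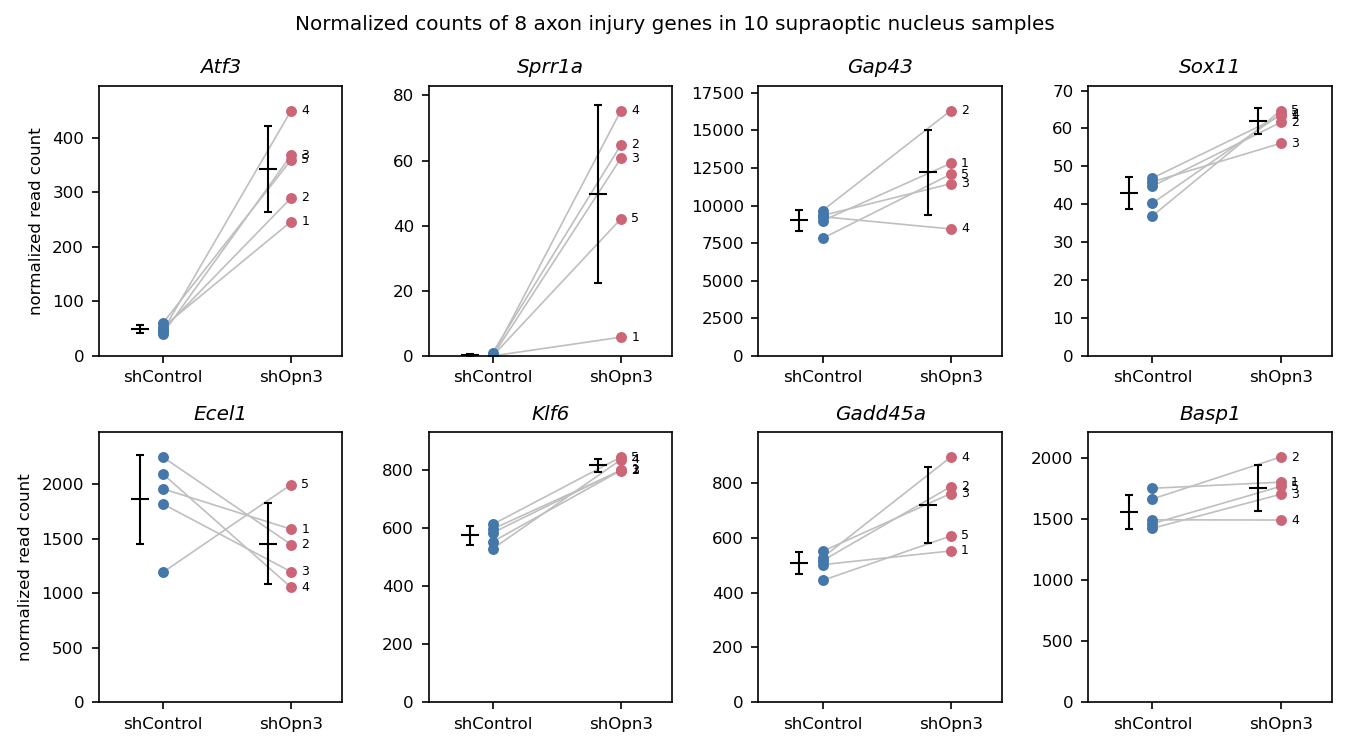
Normalized read counts of the 8 genes (vertical axes, from 0) in shControl (blue) and shOpn3 (red) samples, with grey lines joining equal replicate numbers, the shOpn3 number beside its point, and black marks for the mean and SD of each group (n = 5). The groups are apart for Atf3, Sprr1a, Sox11, Klf6 and Gadd45a, overlap for Gap43, Basp1 and Ecel1, and shOpn3 replicate 1 is lowest for Atf3, Sprr1a and Gadd45a.

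Counted over the 8 genes, 5 had groups that did not overlap, all with shOpn3 higher, beside 8.03% of all genes tested in that direction and 7.23% in the opposite one. The same 5, Atf3, Sprr1a, Sox11, Klf6 and Gadd45a, were higher in all 5 same-numbered pairs, as were 18.7% of all genes tested. All 8 passed the filter, and their median log2 fold change was 0.49. Since the difference between these groups was in view when the genes were chosen, nothing is read from these counts. Gap43 and Basp1 were higher in 4 of 5 pairs and Ecel1 in 1 of 5. Pair 4 was the exception for Gap43 (log2 difference -0.13), and pair 5 for Ecel1 (0.74).

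**Figure D2:**
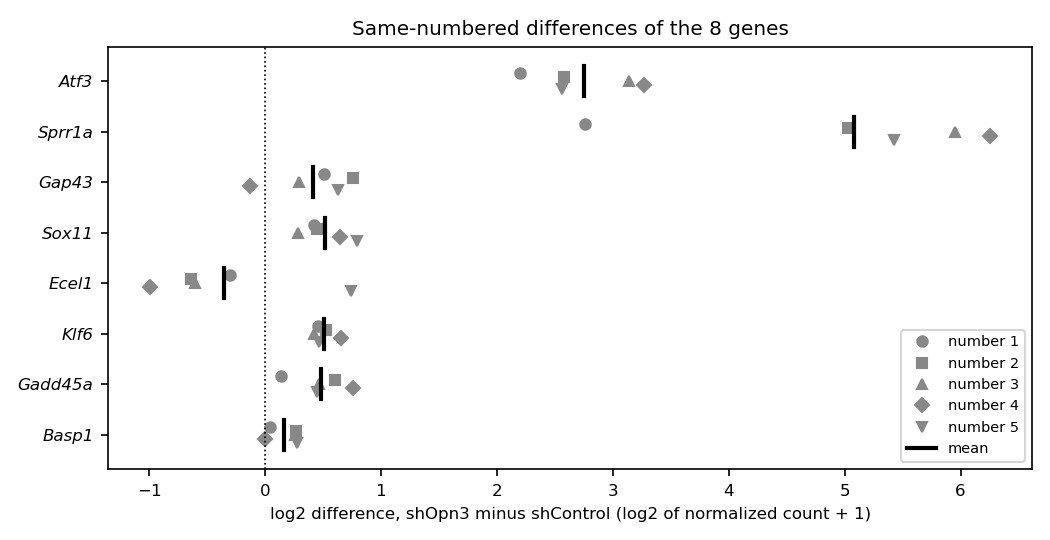
Difference between same-numbered shOpn3 and shControl samples on the log2(normalized count + 1) scale (horizontal axis) for each gene, 1 symbol per replicate number, with a black bar at the mean of the 5 pairs. Klf6 pairs lie close together, from 0.42 to 0.66, whereas Ecel1 pairs run from -0.99 to 0.74.

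Within a group the genes varied in different ways from sample to sample. On the log2(normalized count + 1) scale, after subtraction of each group's mean, 28 pairs of genes were compared over the 10 samples, as a description. Gap43 and Basp1 varied together (Pearson r = 0.79, and 0.65 to 0.88 when any 1 sample was left out). This rested mainly on the shOpn3 samples, which had the same order for both genes (replicates 2, 1, 5, 3 and 4 from high to low), whereas the shControl samples did not. Sprr1a and Gadd45a varied together as well (r = 0.76, 0.57 to 0.84), both of them low in shOpn3 replicate 1. Sprr1a hardly varies in shControl, where it is below 3 reads, so its correlations rest on the shOpn3 samples. Atf3 ran against Gap43 (r = -0.77, -0.86 to -0.63) and against Ecel1 (r = -0.55, -0.72 to -0.40). The 8 genes thus did not vary as a single block within groups. All points of a sample share its library, its punch and its scaling.

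**Figure D3:**
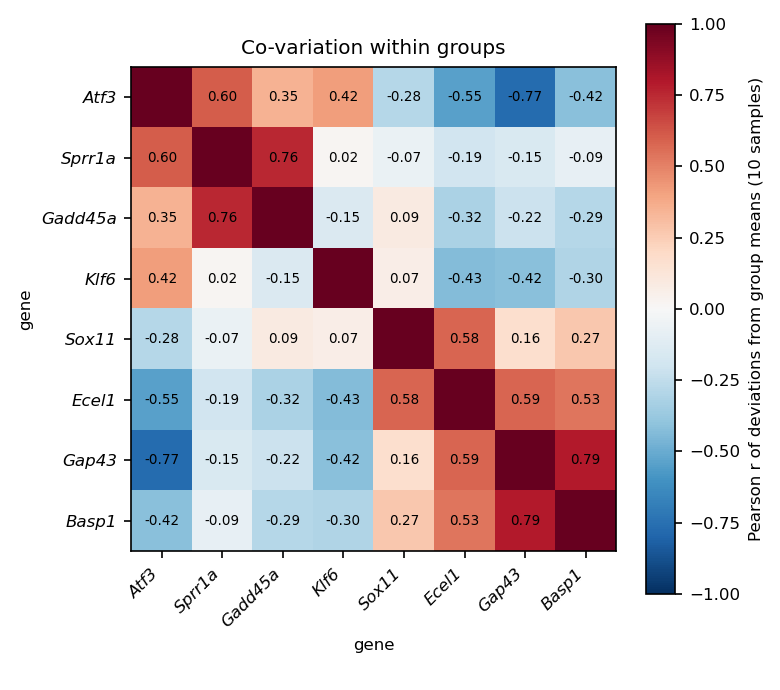
Pearson correlation between the 8 genes (both axes) of their deviations from the group means over 10 samples, from blue (-1) to red (1), with the value in each square. Gap43, Basp1 and Ecel1 form a red corner, with r from 0.53 to 0.79, and Atf3 is blue against all 3 of them.

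Markers of several other cell types differed between the groups. The summed level of 9 microglia markers was 9515 to 13433 normalized counts in shControl and 17842 to 36697 in shOpn3. Of the 9, 8 passed the test as higher (limma, adjusted p under 0.05). Of all genes, 10.4% were higher and 8.48% lower by this test. Astrocyte markers summed to 197337 to 247879 and 247517 to 376296, with 3 of 6 higher, among them the reactive marker Gfap. T cell markers, all at low counts, summed to 173 to 266 and 237 to 556 (4 of 6 higher), and monocyte and perivascular macrophage markers to 1503 to 2232 and 2086 to 5010 (2 of 6 higher). Oligodendrocyte markers summed to 703786 to 1201570 and 238156 to 451906, with 6 of 6 lower. Avp and Oxt together ran from 52511 to 158977 and from 8429 to 30626, both lower. General neuronal markers summed to 108499 to 160597 and 114949 to 205236, and 1 of 7 was higher, Rbfox3. The endothelial sum was 11525 to 14927 against 9764 to 13508 and the meningeal sum 7344 to 9397 against 8025 to 11009. Both overlap between groups, as do the astrocyte, T cell, monocyte and neuronal sums. The microglial sum, the oligodendrocyte sum and that of Avp and Oxt do not. The part of these markers in the values of the 8 genes was not tested.

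Within groups, the same sums were set beside each of the 8 genes, 80 comparisons in all, given as a description over 10 samples. A sum of normalized counts rests mostly on its most abundant markers. In the neuronal sum this was Map2, with means of 68986 in shControl and 72982 in shOpn3, and in the microglial sum Csf1r, with 5257 and 11091. Atf3 ran with the microglial sum (r = 0.87, 0.81 to 0.92 leaving out any 1 sample) and the astrocyte sum (r = 0.83), but also with the endothelial (0.74), monocyte (0.73), T cell (0.68), meningeal (0.65) and oligodendrocyte (0.64) sums. It ran against the neuronal sum (r = -0.79). Gap43 did the reverse, with r = 0.92 for the neuronal sum and from -0.95 (astrocytes) to -0.65 (monocytes) for the same 7 other sums. Thus the punch with the most microglial signal, shOpn3 replicate 4, had the highest Atf3 and the lowest Gap43 of its group. The punch with the most neuronal signal, shOpn3 replicate 2, had the highest Gap43 and Basp1. Ecel1 followed the neuronal sum less closely (r = 0.59).

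**Figure D4:**
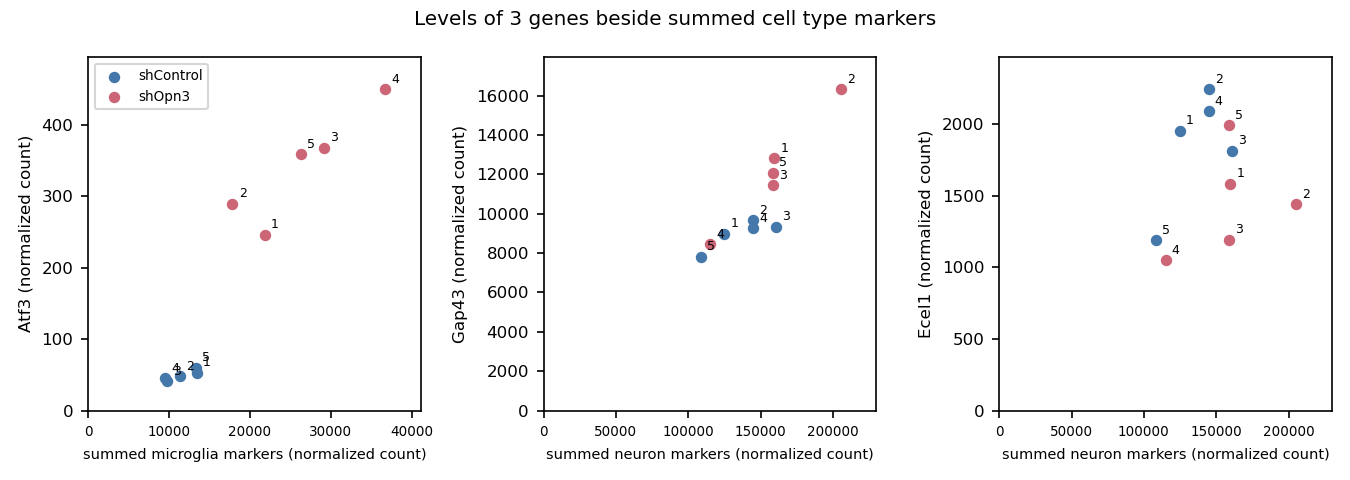
Normalized counts of Atf3 against the summed microglia markers (left), and of Gap43 (middle) and Ecel1 (right) against the summed neuronal markers, 1 point per sample with its replicate number, shControl blue and shOpn3 red, axes from 0. Atf3 is 247 or more in all shOpn3 samples, where the microglia sum is 17842 or more, and Gap43 climbs with the neuronal sum in both groups.

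A further contrast ran between shOpn3 replicate 1 and the rest of its group. This library had the highest Opn3 (290), Avp (20888) and Oxt (9739) of the shOpn3 samples and the lowest Atf3, Sprr1a and Gadd45a. In shControl, replicate 1 likewise had the highest Avp (102261) and Oxt (56716) of its group, so high Avp and Oxt were not particular to the shOpn3 sample. Klf6 and Sox11 did not set shOpn3 replicate 1 apart.

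By the rule for likeness, the genes whose deviations from the group means were closest to the mean standardized deviation of the 8 were Hic1 (r = 0.93), Hivep1 (r = 0.88), Yars1 (r = 0.88), Cs (r = 0.87) and Scn4b (r = 0.86), of 13905 genes over 10 samples. None of these 5 passed the test between groups. Because the 8 genes did not vary together, the closest genes to single members were looked up after their values had been seen. For Atf3 these began with Cdkn1a (r = 0.97), the p53 target p21, followed by Tapbpl and Ostf1 (both 0.96). For Gap43 they began with Dab1 (r = 0.98), Syt12 (0.96) and Robo2 (0.96), genes of neuronal migration, vesicles and axon guidance. For Ecel1 the 5 closest were Slc18a3 (r = 0.94), Cacna2d2 (0.93), Thsd7a (0.93), Cachd1 (0.93) and Chat (0.92). Slc18a3, the vesicular acetylcholine transporter, and Chat, choline acetyltransferase, define cholinergic neurons, and the other genes named do not.

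The relatives of the 8 genes did not all share their values. Jun, the partner of Atf3 in the injury response, averaged 1291 ± 250 normalized counts in controls beside 1270 ± 112 in shOpn3 samples (SD, n = 5 each). Its log2 fold change was -0.01 with a 95% interval of -0.27 to 0.26 (limma, adjusted p = 0.97). For the whole punch the interval excludes a log2 fold change the size of that of Atf3. A rise of Jun in few of its cells was not tested. Of 8 tested relatives of Atf3 and partners of Jun, 2 were called by limma (25%, beside 10.4% of all genes called higher and 18.8% called in either direction). They were the immediate early genes Fos (log2 fold change 1.06, limma adjusted p = 0.00424) and Fosb (1.68, limma adjusted p = 0.000695), both higher. With the replicate block 4 were called, all higher, beside 2350 of all 15597 genes called higher. Among 14 other Klf genes, Klf10 (0.52, adjusted p = 0.00293) and Klf12 (0.40, adjusted p = 0.0128) were higher by limma. This was 14.3% of them, beside 10.4% of all genes called higher and 18.8% called in either direction. With the replicate block 5 were higher, beside 2350 of all 15597 genes called higher. Klf7, which promotes axon growth, had a log2 fold change of -0.06 (adjusted p = 0.66 in limma), and Klf4, which restrains it, -0.10 (adjusted p = 0.74). Gadd45g was higher (0.96, limma adjusted p = 0.0113), with a control mean of 77.2 ± 26.9 normalized counts beside 145 ± 22.1 in shOpn3 samples (SD, n = 5 each), and Gadd45b, at 0.38, did not pass (adjusted p = 0.26). Sox12, the SoxC relative measured, averaged 14.9 and 9.81 normalized counts and did not pass (limma, adjusted p = 0.52), and Sox4 was not analysed here. Marcks, which like Gap43 and Basp1 binds membrane and actin, was higher (0.45, limma adjusted p = 0.00939), and Marcksl1, at low counts, was not called (-0.57, adjusted p = 0.30). Neurogranin (Nrgn), which shares the calmodulin-binding motif of Gap43, was higher by 1.82 (limma, adjusted p = 0.0331) but lost the call without any 1 of 8 libraries (adjusted p 0.0508 to 0.0824). It was not called in edgeR or DESeq2 either, both with a log2 fold change of 1.30 (adjusted p = 0.107 and 0.114). Its shControl replicates 1 and 5 had 2420 and 2427 normalized counts, within the 2224 to 3829 of shOpn3. In shControl replicates 2 to 4 it had 405, 299 and 573. In the Ecel1 family Ece2 alone of 6 was called, lower by limma (-0.76, adjusted p = 0.0112). That share of 16.7% stood beside 8.48% of all genes called lower and 18.8% called in either direction.

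Of the other injury transcription factors, 24 were tested and 2 passed (8.33%, beside 18.8% of all genes). Both were higher, beside 10.4% of all genes called higher, and the list median was 0.07. Stat3, which carries cytokine signals to the nucleus, rose (log2 fold change of 0.36 with SE 0.10, limma adjusted p = 0.0206), with means of 3658 ± 287 and 4707 ± 630 normalized counts (SD over 5 samples). Cebpd, which Stat3 and inflammation are known to induce, rose by 1.28 (SE 0.35, limma adjusted p = 0.0235), with means of 17.2 ± 9.02 and 39.6 ± 11.7 normalized counts. Both calls were lost without shControl replicate 2, without shControl replicate 4 or without shOpn3 replicate 3, and that of Cebpd also without shOpn3 replicate 4 (adjusted p 0.0513 to 0.0588). Cebpd and Stat3 are also made by astrocytes and microglia, of whose markers 3 of 6 and 8 of 9 were higher. The part of these cells in the values of both genes was not tested. At an unadjusted p under 0.05 limma had 7 higher and 1 lower. The share of all genes at that threshold is not given, so nothing is read from these counts. In edgeR 3 were called higher and in DESeq2 5, beside 1615 and 1966 of all 15597 genes called higher. With the replicate block 6 were higher and 1 lower, beside 30.3% of all genes called.

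In the signalling list from DLK to JNK and axon survival, 4 of 22 genes passed, a share of 18.2% that is near the 18.8% of all genes. All 4 were lower, beside 8.48% of all genes called lower, and the list median was -0.09. Nmnat1, which makes NAD in the nucleus, fell from 675 ± 153 to 418 ± 78.1 normalized counts (log2 fold change -0.68, limma adjusted p = 0.0141). Map2k7, the kinase that activates JNK, fell from 866 ± 122 to 590 ± 88.2 normalized counts, with no overlap between groups (-0.55, limma adjusted p = 0.00827). The JNK phosphatase Dusp10 (-0.67, limma adjusted p = 0.0351) and the JNK scaffold Mapk8ip2 (-0.33, limma adjusted p = 0.0460, named outside the rule after its value was seen) lost their calls without any 1 of 6 and of 8 libraries (adjusted p 0.0546 to 0.123). Dusp10 also lost it with sample quality weights (-0.41, adjusted p = 0.0804 in limma), and Mapk8ip2 without the filter, with TMM and with quantile normalization (limma adjusted p = 0.0602, 0.0532 and 0.0844). At an unadjusted p under 0.05 limma had 2 higher and 5 lower, from which nothing is read, since the share of all genes is not given. Both edgeR and DESeq2 called 4 lower, beside 1410 and 1739 of all 15597 genes called lower. The replicate block gave 1 higher and 6 lower, beside 30.3% of all genes called.

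Growth cone and axon cytoskeleton genes, the class of Gap43 and Basp1, split by direction. Of 27 tested, 4 were higher and 5 lower (33.3% called, beside 18.8% of all genes), and the list median was -0.15. Fgf13, a microtubule-binding protein of growing axons, had 1242, 1424, 1592, 1566 and 1359 normalized counts in shControl and 2583, 3206, 3426, 2340 and 2797 in shOpn3. Its groups did not overlap, and its log2 fold change was 0.99 (SE 0.11, limma adjusted p = 0.000306). Cd24 (0.88, limma adjusted p = 0.00285), a surface protein of young neurons, and Plppr1 (0.49, limma adjusted p = 0.0194), which promotes membrane outgrowth, were the next highest. The lower genes were microtubule genes and a collapsin response protein. Stmn1, a tubulin-binding protein, fell from 25338 ± 2415 to 16638 ± 2383 normalized counts (-0.61, limma adjusted p = 0.00225), Tubb2b, a neuronal tubulin, by 0.57 (limma adjusted p = 0.0194) and Stmn4 by 0.51 (limma adjusted p = 0.00984). Tuba1a (-0.37, limma adjusted p = 0.0199) and Dpysl3 (-0.39, limma adjusted p = 0.0360) complete the 5, named after their values were seen. Dpysl3 lost its call without any 1 of 8 libraries (adjusted p 0.0559 to 0.0980), and Tuba1a and Tubb2b lost theirs without shOpn3 replicate 3 (limma adjusted p = 0.0570 and 0.0563). Tuba1a was also not called with quantile normalization (-0.27, limma adjusted p = 0.103). Several of these, among them Stmn1 and Tubb2b, are also expressed by oligodendrocyte lineage cells or astrocytes. All 6 oligodendrocyte markers were lower and 3 of 6 astrocyte markers higher, and their part in these values was not tested.

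Of 32 tested injury-induced peptides, receptors and stress genes, 9 were higher and 1 was lower (31.2% called, beside 18.8% of all genes), with a list median of 0.29. Ankrd1, a nuclear protein of stressed muscle that injured neurons also make, resembled Sprr1a across the samples. It had 15.3, 23.4, 9.18, 23.4 and 15.8 normalized counts in shControl and 17.3, 892, 804, 1323 and 722 in shOpn3. Replicate 1 of shOpn3 was at the control level, and the other 4 were far above it (log2 fold change 4.57, SE 0.95, limma adjusted p = 0.00560). Timp1, an inhibitor of matrix proteases, rose by 1.95 (limma adjusted p = 0.000168), from 425 ± 97.8 to 1651 ± 429 normalized counts. Lif, a cytokine released after nerve injury that signals through Stat3, rose by 1.59 (limma adjusted p = 0.00305), from 8.16 to 23.4 normalized counts in shControl samples to 37.4 to 76.3 in shOpn3 samples. Galanin (Gal), a peptide that injured sensory neurons raise and that magnocellular vasopressin neurons contain at rest, fell from 896 ± 151 to 358 ± 105 normalized counts (-1.35, limma adjusted p = 0.000796). Its groups did not overlap, and Avp was lower in the same samples. Timp1 is also made by astrocytes, of whose markers 3 of 6 were higher, and their part in its values was not tested.

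Among 22 genes that limit axon growth, 3 were higher and 3 lower (27.3% called, beside 18.8% of all genes), with a list median of 0.03. With the replicate block 6 were higher and 4 lower, beside 30.3% of all genes called. Quantile normalization gave 6 higher and 1 lower, and leaving out any 1 sample gave 3 to 4 higher and 1 to 4 lower. Socs3, the brake on Stat3 signalling, rose from 15.1 ± 5.24 to 39.1 ± 13.2 normalized counts (1.31, limma adjusted p = 0.00802). The repulsive guidance factor Sema3a rose from 997 ± 98.0 to 2096 ± 454 normalized counts (1.05, limma adjusted p = 0.000483), and Plxna2, a receptor for semaphorins, from 2644 ± 101 to 4614 ± 442 (0.80, limma adjusted p = 0.000151). The groups overlapped for neither Sema3a nor Plxna2. The lower genes were Mag, the myelin inhibitor of growth (-1.41, limma adjusted p = 0.00733), with Epha4 (-0.35, limma adjusted p = 0.0474) and Omg (-0.30, limma adjusted p = 0.0237). Mag is itself among the 6 oligodendrocyte markers that were lower. Its controls were split, with 15574 and 16289 normalized counts in shControl replicates 1 and 5 and 7427, 6667 and 6959 in replicates 2 to 4. Epha4 lost its call without any 1 of 7 libraries (adjusted p 0.0735 to 0.110) and Omg without any 1 of 3 (adjusted p 0.0544 to 0.0552). With quantile normalization neither Epha4 nor Omg was called (limma adjusted p = 0.0519 and 0.0615), nor was Epha4 without the filter (limma adjusted p = 0.0597).

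**Figure D5:**
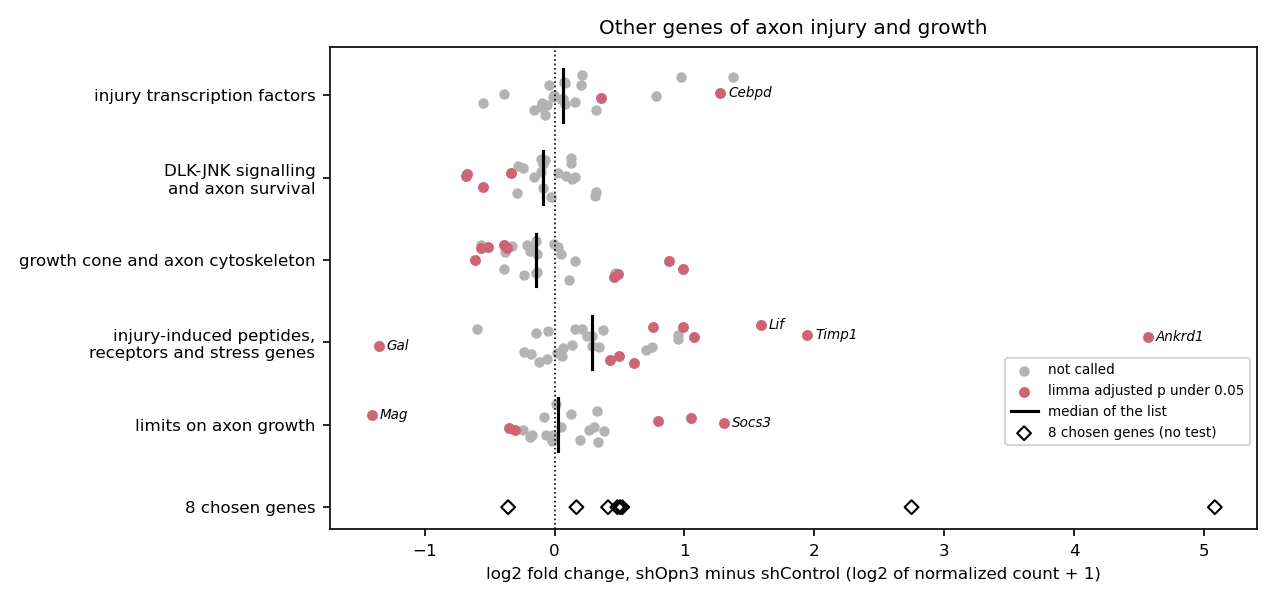
Log2 fold change, shOpn3 minus shControl, of log2(normalized count + 1) (horizontal axis) for the tested genes of 5 lists, with genes past a limma adjusted p of 0.05 in red, the others grey, list medians as black bars, and the 8 chosen genes as open diamonds without a test. Calls lie on both sides of 0 in the growth cone list and in the list of limits on growth, and Ankrd1 at 4.57 is farthest to the right among the tested list genes.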

How the data were processed

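RNA sequencing values for 10 samples, 5 shControl and 5 shOpn3 by the hairpin in the labels, came from 1 table. Per the file headers it held a normalized count per gene and sample, and the authors' own comparison with a log2 fold change, a Wald score and p-values. The normalized count is a signal that the authors made by dividing counts by a size factor, as the values show. Whole reads were recovered for 100% of the positive values (tolerance 0.01 reads). FastQC, STAR, featureCounts and DESeq2 are named in the submitters' processing notes. The build, annotation and use of strand are not given in the sources used here, so overlapping, antisense and near-identical genes are uncertain.

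Log2(normalized count + 1) of genes with a mean of at least 10 was fitted in limma 3.58.1 (R 4.3.3) with the group as the only term, over all 10 samples, with Benjamini-Hochberg adjustment over 15597 genes and a threshold of 0.05. A fold change on this scale understates the change of low genes. The scripts were tested on simulated data. Alternatives were other pseudocounts, filters and scalings, limma-voom with sample quality weights, edgeR 4.0.16 and DESeq2 1.42.0 on recovered reads (which called 3025 and 3705 genes), a replicate block, and leaving out each sample.

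Deviations from the group means correlated at 0.12 to 0.44 between same-numbered samples and at a median of -0.21 (-0.45 to 0.36) between others. The value of 0.12, for number 4, lay below the highest of the others, so the pairing is not settled. Equal numbers were used as pairs in the same-numbered differences and the replicate block, and not in the main fit. Samples of a group differed by more than sampling noise. Means carry SDs over 5 samples. Members, lists and tests were chosen with earlier results of these data known. Genes named are the 8 members, Opn3, Avp and Oxt, up to 3 called genes per direction in each pathway list, called relatives and 8 fixed relatives, and the 5 genes most like the members' mean. Exceptions are stated. Promoters are from RefSeq (GRCr8), a build not checked against the files. Levels were not compared between genes.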

Additional observations from a re-analysis of the deposited data

Results flagged for a closer look

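Over 58 group values of the genes examined, 2 samples lay far from the other 4 of their group, and about 2.9 are expected if 1 in 20 groups is marked by chance. Sprr1a in shControl replicate 2 was 1.02 normalized counts, a single read, where the other 4 control samples had 0, which is below the floor of 3 reads. Cebpd in shOpn3 replicate 4 was 59.9 normalized counts, where the next highest shOpn3 sample had 38.0. That library also had the highest Atf3 and the highest summed microglia markers of its group.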

How the results depend on the processing

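The log2 fold changes of the 8 members kept their direction in all 159 recomputations, and 155 stayed within 1 SD between replicates. The exceptions were Sprr1a, at 3.12 with a pseudocount of 5, 7.25 in edgeR and 7.49 in DESeq2 (the gene is near 0 in controls), and Sox11, at 0.35 with quantile normalization. All genes called numbered 2940, against 5085 with sample quality weights and 4726 with the replicate block, and 1973 to 3057 when any 1 sample was left out. Called injury transcription factors, 2, numbered 1 with a minimum mean of 50, 5 in DESeq2, 7 with sample quality weights, 7 with the replicate block and 0 to 6 leaving out any 1 sample. The 0 came without shControl replicate 2, shControl replicate 4 or shOpn3 replicate 3, and the 6 without shOpn3 replicate 1. Signalling and axon survival calls, 4, numbered 7 with the block and 2 to 3 leaving out any 1 sample. Injury-induced peptides, receptors and stress genes, 10, numbered 16 with sample quality weights, and limits on growth, 6, numbered 10 with these weights and 10 with the block. The causes of these shifts were not tested. Without the filter on low values 2804 genes were called. Sprr1b, Sprr2d and Sprr3 stayed under the floor of 3 reads in each sample, so no difference was detectable for them at this depth.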
